A study of Rattus norvegicus with 9 samples.

Results

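The 10 genes described here are the G1 cyclins, their kinases and the Cip/Kip inhibitors: the D-type cyclins Ccnd1, Ccnd2 and Ccnd3, the E-type cyclins Ccne1 and Ccne2, the cyclin-dependent kinases Cdk4 and Cdk6, and the inhibitors Cdkn1a (p21), Cdkn1b (p27) and Cdkn1c (p57). They were chosen by gene symbol, ignoring case, and all 10 of 10 were found among 26401 genes of the expression table. The table gives them the Ensembl identifiers ENSRNOG00000020918 for Ccnd1, ENSRNOG00000019939 for Ccnd2, ENSRNOG00000050258 for Ccnd3, ENSRNOG00000014786 for Ccne1, ENSRNOG00000008055 for Ccne2, ENSRNOG00000025602 for Cdk4, ENSRNOG00000009258 for Cdk6, ENSRNOG00000000521 for Cdkn1a, ENSRNOG00000007249 for Cdkn1b and ENSRNOG00000020559 for Cdkn1c. The libraries were made from S31 cells, wildtype primary smooth muscle cells from heart microvessels of male Wistar Kyoto rats, after 48 h without serum. There were 9 libraries in 3 sets of 3. The control set (columns LH-NS) received fresh serum-free medium and was harvested at 24 h. The IGF-NS columns belong to sample records that give recombinant rat PDGF-BB at 25 ng/ml and a harvest at 48 h, whereas the PDGF-NS columns belong to records that give recombinant human IGF-1 at 25 ng/ml and a harvest at 24 h. Column names and records thus disagree on the growth factor, and each set is named here after its columns. All controls were harvested at 24 h, so in the set with the later harvest growth factor and time cannot be told apart. Nothing in the sources says that the 3 libraries of a set were separate cultures. The p-values therefore reflect the spread among these libraries alone, and that spread may be technical.

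Background on these genes is as follows. Mitogens raise the D-type cyclins, which bind CDK4 or CDK6 and start to phosphorylate the retinoblastoma protein, and cyclin E with CDK2 completes this step, so that E2F factors turn on genes of DNA replication. Proteins of the Cip/Kip family bind cyclin and CDK complexes; they block CDK2 and also help D-type cyclins assemble with their kinases. In vascular smooth muscle, p27 and p21 are known as brakes on proliferation, and much of the control of p27 and cyclin E acts on protein stability, which RNA levels do not show.

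FPKM values (fragments scaled to transcript length and library size, as deposited by the authors) summed to between 616765 and 748000 per library. Read depth is unknown. The most frequent steps between low values gave ratios between 0.664 and 1.41 to control library 1. A second step was about as frequent in most libraries, so relative depth could not be recovered from them. Smooth muscle markers were present, with a summed level of 3628 to 4961 FPKM over 9 markers in control, 993 to 1071 in the IGF-NS set and 937 to 1093 in PDGF-NS. Most of this was Tagln and Tpm2 (means of 2105 and 1604 FPKM in control). Of 8 tested against control, 6 were called lower and 0 higher in IGF-NS. In PDGF-NS 7 were called lower and 1 higher (Des, 1.51 to 5.18 FPKM). The list of 8 leukocyte and macrophage markers summed to 18.1 to 27.0 FPKM in control, 23.0 to 31.2 for IGF-NS and 43.9 to 89.8 for PDGF-NS, most of it Cd14, and 6 of the 8 had a mean under 1 FPKM. Against control, 2 of 2 tested were called higher in PDGF-NS and 0 in IGF-NS. They were Cd14 (log2 1.29, limma's adjusted p = 0.0028) and Cd68 (1.83, 0.015). Cd68 had 0.208 ± 0.192 FPKM in control and 4.30 ± 4.41 in PDGF-NS, with 9.37 in its highest library. Myh11, the smooth muscle myosin heavy chain, was low in all sets (1.77 FPKM in control). All 8 endothelial markers stayed under 1 FPKM in every library, and Ptprc, the pan-leukocyte marker, was listed at 0 in all 9. Summed levels of 7 fibroblast markers were 314 to 449 FPKM in control, 1917 to 2036 in the IGF-NS set and 852 to 1340 in PDGF-NS. Most of this was Lum, with means of 340, 1795 and 1064 FPKM. Of 6 tested against control, 4 were called higher and 0 lower in IGF-NS. In PDGF-NS 5 were called higher and 1 lower (Col14a1). The part of these marker shifts in the results below was not tested. In these bulk samples, fewer cells of a type and less RNA per cell cannot be told apart. The median difference of all 11376 tested genes was 0.15 in the IGF-NS set and 0.13 in PDGF-NS against control on the log2 scale; median ratio scaling brought both to 0.01, so small rises should be read against these shifts. That scaling also changed the higher share of calls over all genes from 69.9% to 48.4% in the IGF-NS set and from 66.9% to 51.0% in PDGF-NS.

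In starved control cells the genes spanned more than 3 orders of magnitude in FPKM, a scale per transcript length on which genes can be compared. Cdk4 was the most abundant with 354 ± 37.5 FPKM (SD, n = 3), followed by Ccnd3 with 162 ± 33.2. Ccnd2 (94.9 ± 5.27), Cdkn1a (89.5 ± 9.02), Cdkn1b (88.4 ± 16.4) and Ccnd1 (85.4 ± 3.6) lay close together, and neighbours in this order did not differ beyond their spread. Cdk6 had 31.5 ± 3.51, Ccne1 4.11 ± 0.553 and Ccne2 1.31 ± 0.328 FPKM. Cdkn1c had 0.124 ± 0.0577 FPKM and a mean under 1 FPKM over the 9 libraries, so 9 of the 10 genes entered the test. The plot of FPKM by library shows all of them.

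**Figure D1:**
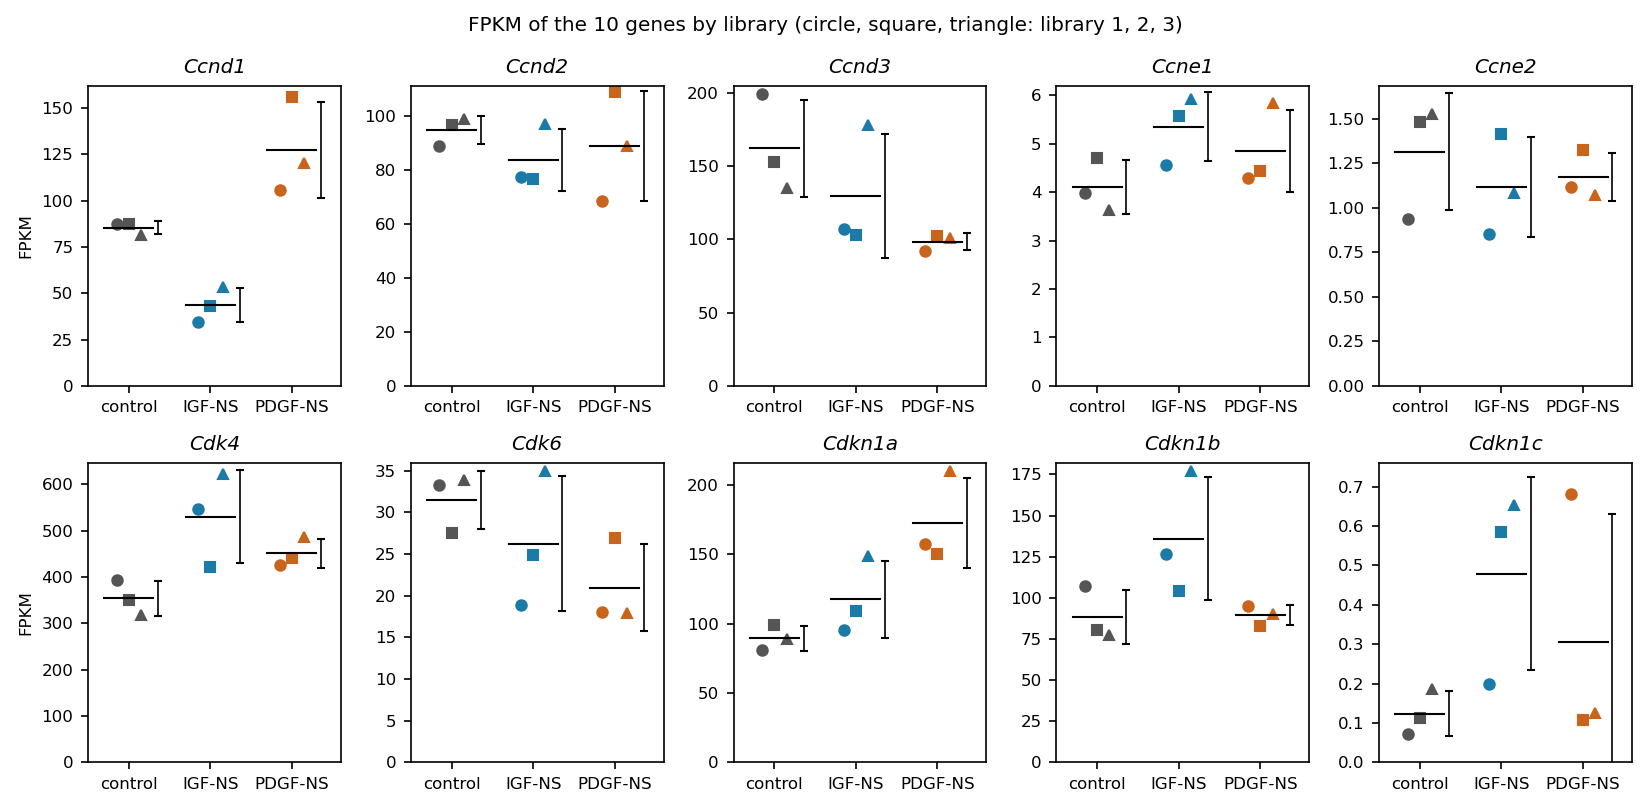
FPKM of each of the 10 genes in the 9 libraries, on a linear axis from 0 for each gene; points are libraries, horizontal bars are set means and vertical bars are 1 SD (cut at 0 for Cdkn1c). Ccnd1 lies between 34.6 and 53.4 FPKM in the IGF-NS libraries, between 81.2 and 87.5 in control and between 106 and 156 in the PDGF-NS libraries, with no overlap between sets.

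Of the 9 tested genes, 2 were higher and 1 was lower in IGF-NS than in control (Cdk4, Cdkn1b and Ccnd1), 2 were higher and 1 was lower in PDGF-NS (Cdkn1a, Ccnd1 and Ccnd3), and 1 differed between the treated sets (Ccnd1). In all tested genes, 24.9% were called in IGF-NS against control (17.4% higher and 7.48% lower), 31% in PDGF-NS against control (20.7% higher and 10.2% lower) and 15.9% between the treated sets (8.33% higher and 7.55% lower in PDGF-NS). The number of calls among the 9 genes was thus near the background. The median difference of the 9 was −0.13 in the IGF-NS set and 0.03 in PDGF-NS, beside 0.15 and 0.13 for all genes; the PDGF-NS median was −0.10 to −0.11 under 3 other scalings, and the PDGF-NS calls were then 1 higher and 2 lower. The IGF-NS median was −0.21 under median ratio scaling, with 0 higher and 1 lower called, −0.25 under quantile normalization, with 1 and 1, and 0.09 over all 10 genes with no filter on low values. Both comparisons with control share the same 3 control libraries.

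Ccnd1, which encodes cyclin D1, the D-type cyclin most directly tied to mitogen signals, moved in opposite directions in the treated sets. Control libraries 1, 2 and 3 had 87.4, 87.5 and 81.2 FPKM. The IGF-NS libraries had 34.6, 43.2 and 53.4 FPKM and the PDGF-NS libraries 106, 156 and 120 FPKM. Every IGF-NS library was below, and every PDGF-NS library above, all controls. The mean was 43.7 ± 9.39 FPKM (SD, n = 3) in IGF-NS, a log2 difference of −0.97 ± 0.18 (SE) from control with limma's adjusted p = 0.0043. In PDGF-NS it was 127 ± 25.7 FPKM, a log2 difference of 0.55 ± 0.18 with adjusted p = 0.041. PDGF-NS exceeded IGF-NS 2.91-fold in mean FPKM (log2 1.52 ± 0.18, 95% interval 1.12 to 1.93, adjusted p = 3.9e-04), and this call and the fall in IGF-NS held in all 19 alternatives run. The rise in PDGF-NS against control held in 8 of 19. It was lost under median ratio scaling (0.42, adjusted p = 0.097), common sum scaling (0.41, 0.11), quantile normalization (0.45, 0.075), no filter on low values (0.058) or no variance trend (0.0504), and without any 1 of control libraries 1, 2 or 3 (adjusted p = 0.067, 0.080 and 0.10), IGF-NS library 2 (0.052), PDGF-NS library 2 (log2 0.40, 0.14) or PDGF-NS library 3 (0.086).

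Ccnd3, encoding cyclin D3, was the most abundant D-type cyclin in control and IGF-NS cells. Its control libraries had 199, 153 and 135 FPKM, the IGF-NS libraries 107, 103 and 178, and the PDGF-NS libraries 92, 103 and 101. All PDGF-NS libraries lay below all controls, while IGF-NS library 3 lay among the controls. Ccnd3 fell in PDGF-NS to 98.6 ± 5.74 FPKM (log2 −0.70 ± 0.22, adjusted p = 0.033). In IGF-NS the mean was 129 ± 42.3 FPKM (−0.35 ± 0.22, 95% interval −0.83 to 0.13, adjusted p = 0.26), and without IGF-NS library 3 the difference was −0.60 with adjusted p = 0.029. The fall in PDGF-NS held in 12 of 19 alternatives and was lost without control library 1 (−0.54, adjusted p = 0.097) or 2 (0.063), without PDGF-NS library 1 (0.095), 2 (0.071) or 3 (0.08), with no filter on low values (0.054) and with a replicate block (0.058). The treated sets differed by −0.34 (95% interval −0.82 to 0.13, adjusted p = 0.33), which did not pass.

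Ccnd2, encoding cyclin D2, was not called in any comparison or alternative. Its libraries had 89, 96.8 and 99 FPKM in control, 77.3, 76.9 and 97.2 in the IGF-NS set, and 68.6, 109 and 89 in PDGF-NS. The sets overlapped, and PDGF-NS library 2 was the highest and PDGF-NS library 1 the lowest of all 9. The log2 difference from control was −0.19 in IGF-NS (95% interval −0.57 to 0.20, adjusted p = 0.47) and −0.12 in PDGF-NS (−0.50 to 0.27, adjusted p = 0.64).

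The makeup of the D-type cyclins, taken within each library and so free of scaling between libraries, differed between the sets. Ccnd1 made up 23.3%, 26% and 25.8% of the summed FPKM of the 3 genes in control, 15.8%, 19.4% and 16.2% in the IGF-NS set and 39.7%, 42.4% and 38.8% in PDGF-NS. The sets did not overlap. Means were 25.0 ± 1.5%, 17.1 ± 1.94% and 40.3 ± 1.88% (SD, n = 3), and each pair of sets gave p = 0.1 in an exact two-sided permutation test, the smallest p that 3 against 3 libraries allow. Ccnd3 took 47.1 ± 5.33% in control, 49.8 ± 4.09% in the IGF-NS set and 31.7 ± 3.39% in PDGF-NS. The order within the family was therefore Ccnd3 first in control and IGF-NS, and Ccnd1 first in PDGF-NS. The sum over the 3 genes was 343 ± 30.6 FPKM in control, 257 ± 62.3 in the IGF-NS set and 315 ± 50.7 in PDGF-NS, with overlap between the sets.

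The E-type cyclins were low and showed no call. Ccne1, encoding cyclin E1, had 3.99, 4.71 and 3.63 FPKM in control, 4.56, 5.58 and 5.93 in the IGF-NS set and 4.29, 4.43 and 5.83 in PDGF-NS. Both treated sets overlapped with control. The differences were 0.31 (95% interval −0.05 to 0.68, adjusted p = 0.19) and 0.19 (−0.17 to 0.56, adjusted p = 0.41). Ccne2, encoding cyclin E2, ranged from 0.852 to 1.53 FPKM over the 9 libraries, with overlap between all sets and differences from control of −0.13 (−0.56 to 0.30) and −0.08 (−0.51 to 0.34). At such levels the log2(FPKM + 1) scale understates fold changes. Ccne1 supplied 75.8 ± 5.31% of E-type cyclin FPKM in control, 82.9 ± 2.69% in the IGF-NS set and 80.3 ± 3.83% in PDGF-NS.

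Cdk4, the main kinase partner of the D-type cyclins by RNA level here, was highest in IGF-NS. Control libraries had 393, 351 and 318 FPKM, the IGF-NS libraries 546, 422 and 622, and the PDGF-NS libraries 427, 440 and 486. All 6 treated libraries lay above all controls. Cdk4 rose in IGF-NS to 530 ± 101 FPKM (log2 0.57 ± 0.16, adjusted p = 0.027), while in PDGF-NS the mean was 451 ± 31 FPKM (0.35 ± 0.16, 95% interval −0.0026 to 0.70, adjusted p = 0.12). The rise in IGF-NS held in 13 of 19 alternatives, and it was lost under median ratio scaling (0.41, adjusted p = 0.07), in a fit of the 6 libraries compared (0.063), and without control library 2 (0.067) or 3 (0.087) or IGF-NS library 1 (0.089) or 3 (log2 0.44, 0.066). The treated sets differed by −0.22 (−0.57 to 0.14), which did not pass.

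Cdk6, the kinase closest to Cdk4 in role, was far less abundant than Cdk4 in every library. It had 33.2, 27.5 and 33.8 FPKM in control, 18.8, 24.9 and 34.9 in the IGF-NS set and 18.1, 27 and 17.9 in PDGF-NS. IGF-NS overlapped with control, and PDGF-NS library 2 lay just under the lowest control. Neither difference passed (IGF-NS −0.29, 95% interval −0.80 to 0.21, adjusted p = 0.38; PDGF-NS −0.58, −1.09 to −0.08, adjusted p = 0.076). The PDGF-NS difference did pass in 6 of 19 alternatives: median ratio scaling (−0.71, adjusted p = 0.038), common sum scaling (0.036), quantile normalization (0.037), the fit of 6 libraries (0.045), and without IGF-NS library 3 (0.04) or PDGF-NS library 2 (−0.77, 0.041). Within the pair, the Cdk6 share of summed FPKM was 7.79%, 7.26% and 9.61% in control, 3.33%, 5.57% and 5.31% in the IGF-NS set and 4.07%, 5.77% and 3.55% in PDGF-NS, so every treated library had a lower share than every control.

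Cdkn1a, which encodes p21, an inhibitor that also responds to growth factor signals, was highest in PDGF-NS. Control libraries had 80.8, 98.8 and 88.9 FPKM, the IGF-NS libraries 95.2, 109 and 149, and the PDGF-NS libraries 157, 151 and 210. All PDGF-NS libraries were above all other libraries, and IGF-NS library 3 was the highest of its set. Cdkn1a rose in PDGF-NS to 173 ± 32.5 FPKM, 1.93 times the control mean (log2 0.93 ± 0.19, adjusted p = 0.0044), and this held in all 19 alternatives (log2 0.78 to 1.02). In IGF-NS the mean was 118 ± 27.7 FPKM (0.37 ± 0.19, 95% interval −0.05 to 0.79, adjusted p = 0.18). PDGF-NS against IGF-NS gave 0.56 (0.14 to 0.97, adjusted p = 0.073), which passed without IGF-NS library 3 (0.74, adjusted p = 0.022) and under median ratio scaling (0.58, adjusted p = 0.05).

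Cdkn1b, which encodes p27, the inhibitor linked to quiescence, lay higher in IGF-NS and near control in PDGF-NS. Control libraries had 107, 80.6 and 77.4 FPKM, the IGF-NS libraries 127, 104 and 177, and the PDGF-NS libraries 95.2, 83 and 90.2. IGF-NS library 2 overlapped with control library 1, and all PDGF-NS libraries lay below all IGF-NS libraries. Cdkn1b rose in IGF-NS to 136 ± 37.2 FPKM (log2 0.60 ± 0.20, adjusted p = 0.04996, at the threshold). This call held in 4 of 19 alternatives, with adjusted p from 0.025 to 0.14 over all of them. It was lost without control library 2 (0.54, adjusted p = 0.13) or 3 (0.51, 0.14), IGF-NS library 1 (0.63, 0.1) or 3 (0.39, 0.12), or PDGF-NS library 1 (0.067), 2 (0.07) or 3 (0.075), and under median ratio scaling it was 0.44 (0.13). It was also lost with either other pseudocount (0.051 each), no filter (0.076), quantile normalization (0.073), no variance trend (0.059), the replicate block (0.058) and the fit of 6 libraries (0.10). In PDGF-NS the difference from control was 0.03 (95% interval −0.41 to 0.47, adjusted p = 0.92), and it changed sign to −0.10 under median ratio scaling. Against IGF-NS it was −0.57 ± 0.20 (SE, adjusted p = 0.080), which passed under common sum scaling (−0.70, 0.025), quantile normalization (−0.63, 0.046) and without IGF-NS library 2 (−0.74, 0.038).

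Cdkn1c, which encodes p57, an imprinted inhibitor of development, was barely detected. Its libraries had 0.0723, 0.113 and 0.186 FPKM in control, 0.2, 0.586 and 0.653 in the IGF-NS set and 0.681, 0.108 and 0.125 in PDGF-NS. The 3 IGF-NS libraries lay above all controls and PDGF-NS library 1 was the highest of all 9, but values this low rest on few fragments. The filter on low values kept Cdkn1c out of the test. It entered only the alternative with no filter, and its value there is not given here. Cdkn1c supplied at most 0.273% of Cip/Kip FPKM in any library. Cdkn1a took 50.5 ± 6.57% of that sum in control, 46.5 ± 4.13% in the IGF-NS set and 65.5 ± 4.01% in PDGF-NS, with all PDGF-NS libraries above all others.

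Set against the D-type cyclins, the inhibitors were more abundant in every treated library than in every control. The ratio of summed Cip/Kip FPKM to summed D-type cyclin FPKM was 0.501, 0.533 and 0.528 in control, 1.01, 0.961 and 0.992 in the IGF-NS set and 0.95, 0.636 and 0.967 in PDGF-NS. PDGF-NS library 2, which had the highest Ccnd1 and Ccnd2, stood apart from the other libraries of its set. On the log2 scale the difference from control was 0.93 in the IGF-NS set and 0.68 in PDGF-NS (exact two-sided permutation p = 0.1 for each, the smallest possible with 3 against 3). The treated sets overlapped (difference −0.24, exact permutation p = 0.2), and without PDGF-NS library 2 the difference was −0.045. Of the genes in the ratio, Ccnd1 alone differed between the treated sets by the direct test. As each ratio is taken within a library, scaling between libraries does not alter it.

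**Figure D2:**
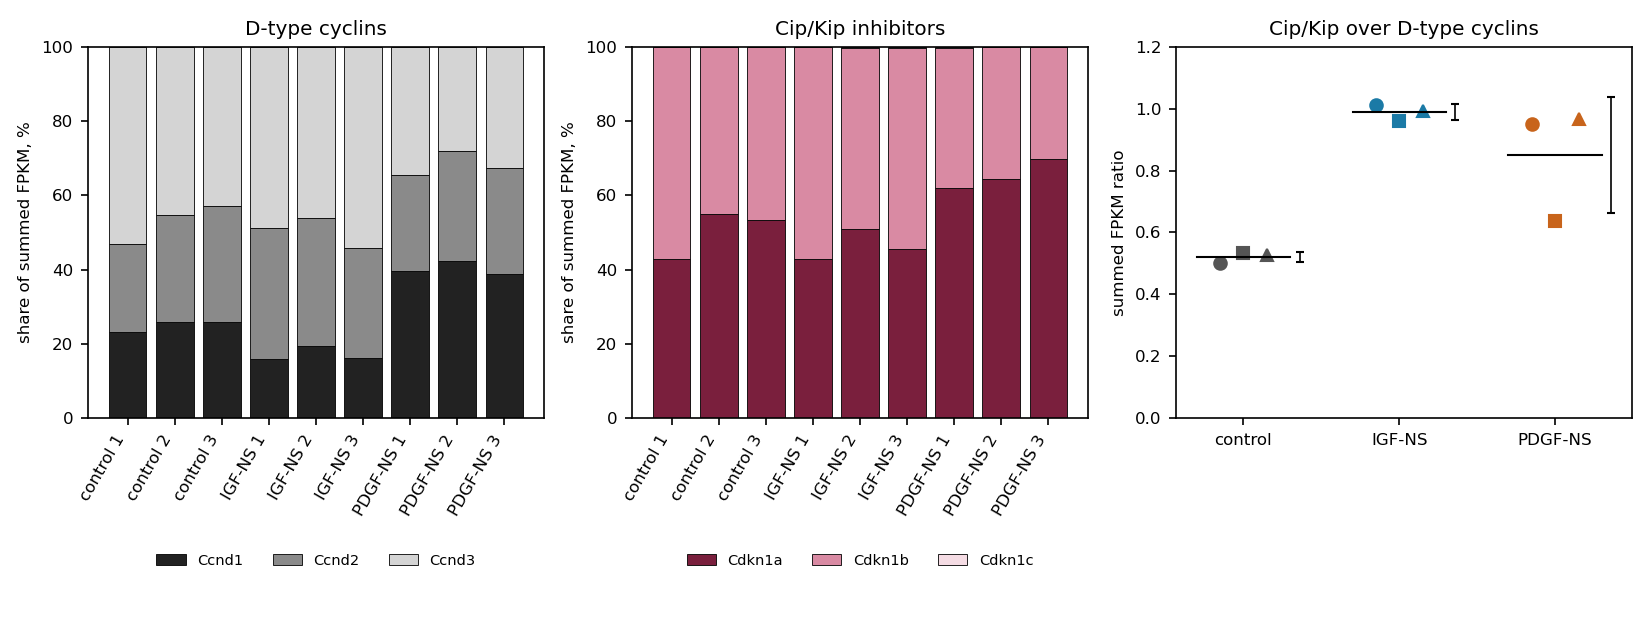
Share of each gene in the summed FPKM of the D-type cyclins (left) and of the Cip/Kip inhibitors (middle) in the 9 libraries, in percent, and the ratio of the summed Cip/Kip to the summed D-type cyclin FPKM (right; points are libraries, bars are means, vertical bars are 1 SD). The Ccnd1 share is 15.8% to 19.4% in the IGF-NS set and 38.8% to 42.4% in PDGF-NS, and the ratio is at most 0.533 in control and at least 0.636 in the treated libraries.

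**Figure D3:**
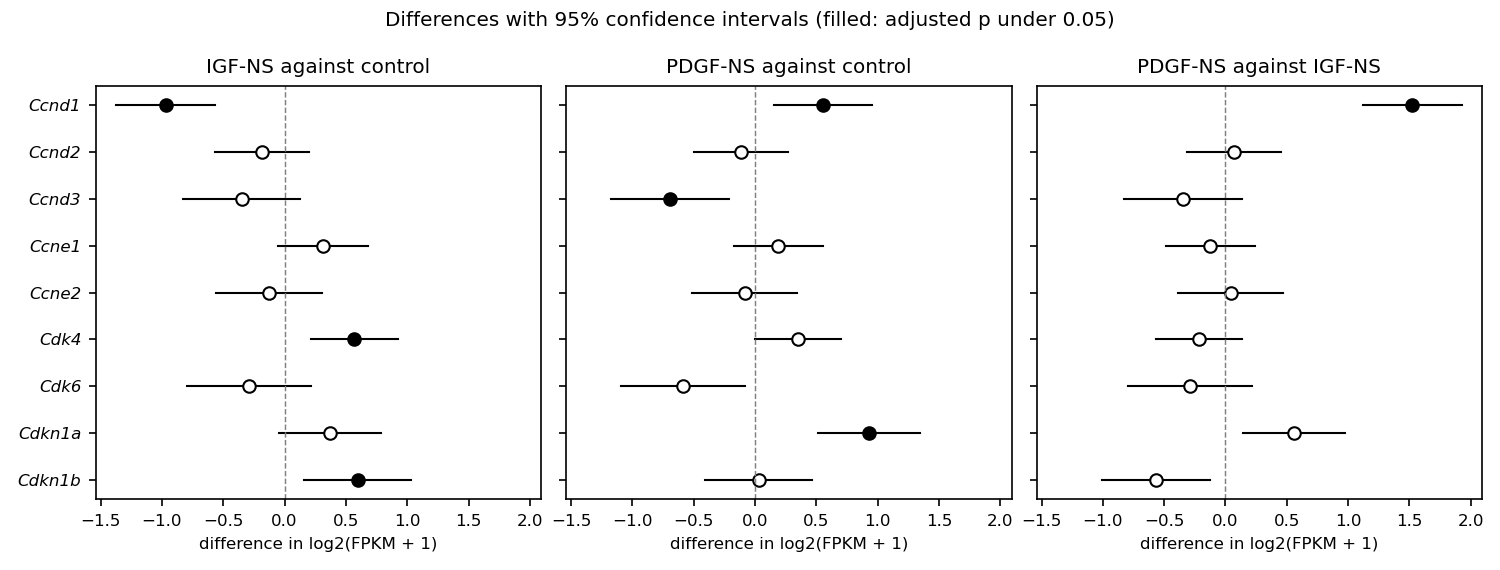
Differences in log2(FPKM + 1) with 95% confidence intervals for the 9 tested genes in the 3 comparisons; filled points have an adjusted p under 0.05. Ccnd1 is the only gene of the 9 called in all 3 panels, at −0.97, 0.55 and 1.52.

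Promoter sequences were looked up in RefSeq (build GRCr8) by symbol, and 5 of the 10 genes had an entry. Of those called in a comparison, Cdk4, Cdkn1b and Ccnd3 are printed for the 250 bases before the annotated start, to show which common binding motifs lie there. Cdkn1a, also called, has an entry with 0 matches to the motifs searched, and its sequence is not printed. Both strands were searched for 7 motifs. The letters CACGTG stood for the E-box, an element of Myc and related factors, and GGGCGG for the GC box bound by Sp1. The cyclic AMP response element was searched as TGACGTCA and the AP-1 site as TGANTCA. For E2F the letters were TTTNNCGC, for forkhead factors GTAAACA and for the CCAAT box those of its name. Among the matches in these windows 0 pairs overlapped. A match is a description of the sequence only. In the Cdk4 promoter (chr7:64771203-64771452, plus strand) the capitals mark 3 E-boxes, a motif found in 5.59% of 33469 promoters of this length:
Cdk4: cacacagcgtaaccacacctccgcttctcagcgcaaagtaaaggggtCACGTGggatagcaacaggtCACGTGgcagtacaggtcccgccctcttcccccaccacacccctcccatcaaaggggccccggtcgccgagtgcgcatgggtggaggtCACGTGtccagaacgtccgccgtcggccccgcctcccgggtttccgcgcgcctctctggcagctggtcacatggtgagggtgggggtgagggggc
In the Cdkn1b promoter (chr4:169491254-169491503, plus strand) the capitals mark 2 CCAAT boxes, 1 on each strand, a motif in 34.0% of promoters:
Cdkn1b: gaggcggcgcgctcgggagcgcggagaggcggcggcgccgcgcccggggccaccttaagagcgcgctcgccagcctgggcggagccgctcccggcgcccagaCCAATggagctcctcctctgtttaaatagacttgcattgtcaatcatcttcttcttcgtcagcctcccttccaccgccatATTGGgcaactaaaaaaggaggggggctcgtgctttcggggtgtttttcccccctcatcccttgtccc
In the Ccnd3 promoter (chr9:20897876-20898125, minus strand) the capitals mark 1 CCAAT box and 2 GC boxes, the latter a motif in 30.5% of promoters and also present, 1 in each and unmarked, in the Cdk4 and Cdkn1b windows:
Ccnd3: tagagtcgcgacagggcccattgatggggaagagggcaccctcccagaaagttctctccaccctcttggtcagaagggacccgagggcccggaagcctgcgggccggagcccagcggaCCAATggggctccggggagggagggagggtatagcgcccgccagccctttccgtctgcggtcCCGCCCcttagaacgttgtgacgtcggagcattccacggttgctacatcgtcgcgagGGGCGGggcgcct
None of these 3 windows held a match to the cyclic AMP response element, AP-1, E2F or forkhead letters, which occur in 1.59%, 6.34%, 4.11% and 3.21% of promoters.

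Genes around the G1 step were read from lists chosen with earlier results of these data known, and they are given as counts beside the background shares above. Inhibitors of the INK4 family bind CDK4 and CDK6 directly. Of the 4 on this list, Cdkn2d matched no symbol and was not read. In IGF-NS 2 of 3 tested rose (1 or 2 under the 3 other scalings), and in PDGF-NS 3 of 3 rose (1 under each of them), with medians of 0.84 and 1.21. Cdkn2b, encoding p15, rose from 12.5 ± 3.09 to 22.8 ± 1.18 FPKM in IGF-NS (log2 0.84, adjusted p = 0.018; not called under median ratio scaling or quantile normalization or without control library 1 or IGF-NS library 1 or 2, adjusted p up to 0.057) and to 80.3 ± 22.7 in PDGF-NS (2.58, adjusted p = 2.4e-05, in all 19 alternatives). Cdkn2c, encoding p18, went from 10.0 ± 1.54 to 21.7 ± 2.63 FPKM in IGF-NS (1.04, called in all 19 alternatives). In PDGF-NS it had 14.2 ± 1.32 FPKM (0.46, limma's adjusted p = 0.036). That call held in 9 of 19 alternatives and was lost under the 3 other scalings, among others. Cdkn2a, whose gene-level value mixes the transcripts of p16 and p19ARF, had 40.8 ± 7.04, 52.9 ± 40 and 95 ± 9.66 FPKM in control, IGF-NS and PDGF-NS. Its IGF-NS difference was 0.13 (adjusted p = 0.85, called in 0 of 19 alternatives). Its rise in PDGF-NS (1.21, adjusted p = 0.044) held in 6 of 19 alternatives and was lost without any 1 of the 3 control or 3 PDGF-NS libraries or IGF-NS library 1, and under the 3 other scalings, no filter, no variance trend and the replicate block (adjusted p up to 0.12).

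Genes listed as regulators of D-type cyclins (labelled inducers in the plot of lists) included some that rose and some that fell in each treated set. Their action on these cyclins was not tested. In IGF-NS 1 of 16 rose and 4 fell (median −0.37; 7 fell under median ratio scaling), and in PDGF-NS 5 rose and 3 fell (median 0.29). Between the treated sets 8 of 16 were higher and 2 lower in PDGF-NS. Of these calls that of Fos (limma's adjusted p = 0.0498) held least often, in 7 of 19 alternatives. Fosl1 and Junb, which encode AP-1 subunits, were called lower in IGF-NS and higher in PDGF-NS. Ets1 (−1.51 and −0.64) and Tead1 (−0.63 and −1.20), 2 transcription factor genes, fell in both sets, and Creb1 was called higher in both (0.63 and 0.48, the first lost under quantile normalization and the second under 3 other scalings and without control library 1 or PDGF-NS library 1 or 2, adjusted p up to 0.13). Of these, Tead1 and the PDGF-NS values of Ets1 and Creb1 were chosen after their values were seen. Junb had 21.5 ± 1.47 FPKM in control, 7.98 ± 1.85 in the IGF-NS set and 70.4 ± 47.6 in PDGF-NS (log2 −1.35 and 1.47 against control). The fall was lost without control library 1 or 2 or IGF-NS library 1 or 2 (adjusted p up to 0.077), and the rise held in all 19 alternatives. Jun, another AP-1 subunit gene, rose in PDGF-NS by 1.22. Myc, whose product drives growth and cyclin genes, went the other way from Ccnd1 there: it had 84.2 ± 18.6 FPKM in control, 61.1 ± 5.17 in IGF-NS (−0.44, not passing) and 18.8 ± 0.785 in PDGF-NS, a fall of log2 −2.08 that held in all 19 alternatives.

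Among FOXO factors and targets, 6 of 10 rose and 2 fell in PDGF-NS (median 0.62), and 3 rose and 2 fell in IGF-NS (median 0.21). Common sum scaling left 4 rising and 3 falling in PDGF-NS. Sesn3, a stress-induced sestrin, rose from 33 ± 13.6 to 134 ± 14.6 FPKM in IGF-NS and 116 ± 18.7 in PDGF-NS, and Ccng2, cyclin G2, from 10.2 ± 2.55 to 27.4 ± 1.91 and 39.4 ± 4.29. All 4 of these rises held in all 19 alternatives, as did that of Foxo1 in IGF-NS (0.56). Irs2, an insulin receptor substrate, had 43.0 ± 13.4 FPKM in control, 7.28 ± 1.61 for IGF-NS and 18.7 ± 2.42 for PDGF-NS (−2.38 and −1.12), and Klf9, a Krüppel-like factor, fell by 0.79 and 0.62 on the log2 scale. These 4 falls held in all 19 alternatives as well; the PDGF-NS value of Klf9 was chosen after it was seen. Foxo3 rose in PDGF-NS (0.61), a call lost under common sum scaling, with the replicate block and without control library 2 or 3 or PDGF-NS library 2 or 3 (adjusted p up to 0.089).

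Genes that act after the G1 step were read in the same way. For E2F target genes of S phase entry, 1 of 15 tested rose and 3 fell in IGF-NS (median −0.22), and 2 rose and 3 fell in PDGF-NS (median −0.28). Tyms, thymidylate synthase, rose in both sets (0.78 and 0.60), while Mcm5, a subunit of the replicative helicase, fell in both (−0.95 and −1.08). The PDGF-NS value of Tyms was not among the 4 largest called differences of its list and was chosen after it was seen. The Tyms calls held in all 19 alternatives; those of Mcm5 were lost with the replicate block, in the fit of 6 libraries and without control library 1 or 2 or IGF-NS library 1 or 2 (IGF-NS, adjusted p up to 0.11) and without PDGF-NS library 1 or 3 (PDGF-NS, up to 0.062). In the Rb, E2F and DREAM list, 5 of 18 rose and 2 fell in IGF-NS, and 2 rose and 2 fell in PDGF-NS, with medians of 0.07 and −0.01. Under median ratio scaling the IGF-NS median turned to −0.04 with 3 rising, and 5 fell in PDGF-NS. Rbl2, encoding the pocket protein p130, rose in both (0.67 and 0.83, each in all 19 alternatives). E2f1 had 3.68 ± 1.61, 2.83 ± 0.792 and 1.8 ± 0.218 FPKM and Rb1 8.93 ± 0.357, 10.9 ± 1.35 and 10.7 ± 1.44, and neither passed in any of the 3 comparisons. The E2f1 difference in PDGF-NS against control (−0.69, limma's adjusted p = 0.059) did pass in 4 of 18 alternatives, that of Rb1 in 0 of 19. Of CDK2, cyclin A and CDK-activating genes, 4 of 8 rose in IGF-NS (2 under median ratio scaling) and 2 of 8 in PDGF-NS, with none falling in either as deposited; 2 fell in PDGF-NS under each of the other scalings. Ccna2, cyclin A2, rose in IGF-NS (26.0 ± 2.01 to 54.1 ± 18.1 FPKM, 0.97; lost without control library 1 or 3 or IGF-NS library 2 or 3, adjusted p up to 0.072) and was 1.39 lower on the log2 scale in PDGF-NS than in IGF-NS. Cdk2 had 34.1 ± 1.52, 40.1 ± 3.37 and 31 ± 1.2 FPKM and did not pass against control. Of 11 genes for G2 and mitosis, 8 rose in IGF-NS, 0 rose and 2 fell in PDGF-NS, and 10 were lower in PDGF-NS than in IGF-NS. The IGF-NS calls of Ccnb1 (held in 14 of 19 alternatives) and Aurka (9 of 19) were lost under median ratio scaling, among others. Aurka was chosen after its values were seen. The 2 falls in PDGF-NS, Plk1 (12 of 19) and Cdc20 (16 of 19), were both lost without control library 3 or PDGF-NS library 1 or 3. The list of ubiquitin ligase genes for G1 regulators also holds Cryab and Pcna, which do not encode ligases. In this list 1 of 13 rose and 1 fell in each set. Fbxo4, an F-box protein reported to act on cyclin D1, rose by 0.69 and 0.94, and its cofactor Cryab, alpha B-crystallin, fell by 1.05 and 2.03 on the log2 scale. The list's medians of 0.08 and 0.06 were both below 0 under median ratio scaling (−0.06 and −0.07). Skp2, the F-box protein that targets p27, had 2.66 ± 0.707, 2.78 ± 0.484 and 1.93 ± 0.317 FPKM and was not called.

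**Figure D4:**
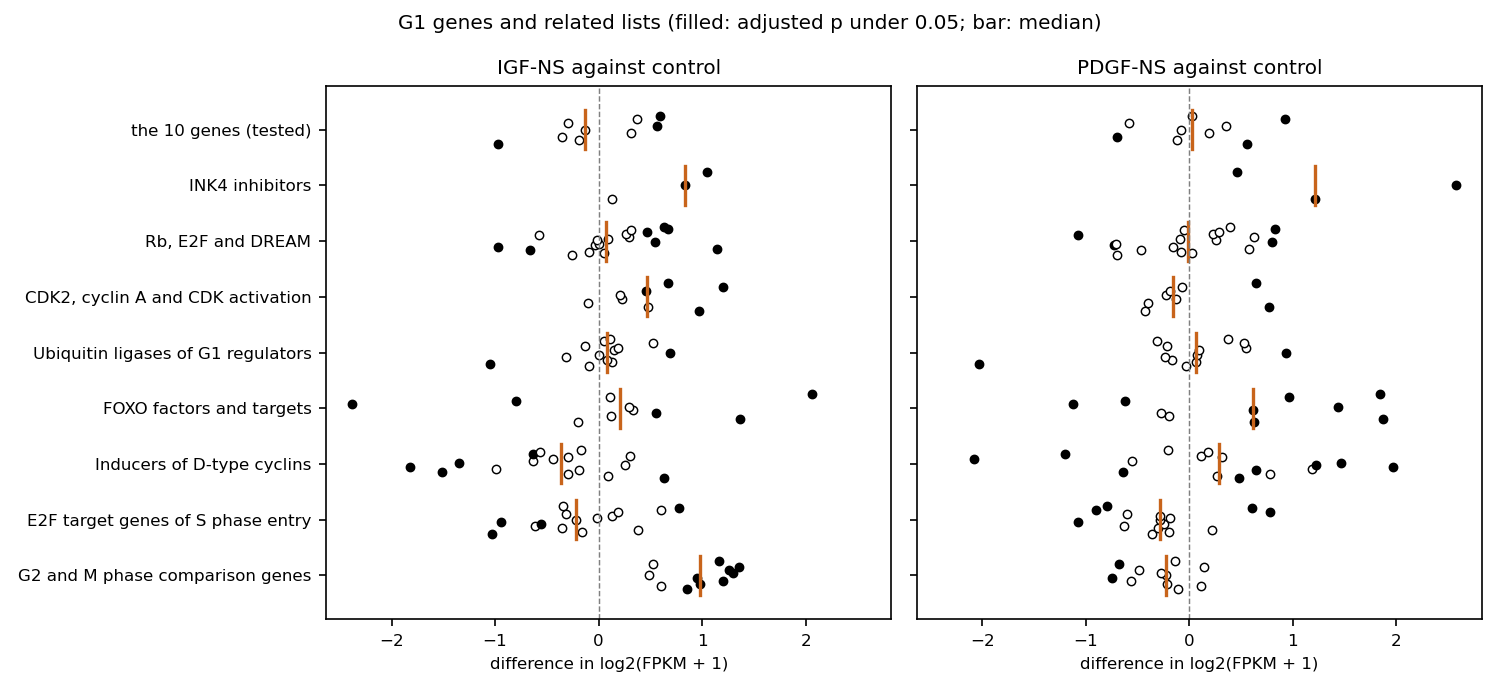
Differences in log2(FPKM + 1) from control for the tested genes of each list, 1 point per gene (filled: adjusted p under 0.05), with the median as a bar, for IGF-NS (left) and PDGF-NS (right). The G2 and M phase list has a median of 0.98 in the IGF-NS set and −0.23 in PDGF-NS, whereas the 9 tested G1 cyclin, kinase and Cip/Kip genes have medians of −0.13 and 0.03.

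Likeness of pattern was measured as the root mean square difference between log2(FPKM + 1) values centred on each gene's own mean over the 9 libraries, as a description over libraries that share 3 sets. Nearest to Ccnd1 were Net1 (0.17), Myo1d (0.18) and Myo1e (0.20), beside a spread of 0.66 for Ccnd1 about its own mean. Net1 had 23 ± 0.237 FPKM in control, 12.9 ± 2.68 in the IGF-NS set and 42.2 ± 10.0 in PDGF-NS. For Cdkn1a the nearest were Med28 (0.11), Setd8 (0.12) and Aprt (0.14), beside a spread of 0.43. Setd8, a histone H4 methyltransferase, had means of 50.4, 67.1 and 86.3 FPKM. For Cdk4 they were Tmem223 (0.04), Twf2 (0.07) and Mrps15 (0.08), beside 0.28. For Ccnd3 they were Bcl9l, Scarf2 and RGD1560871 (0.06, 0.07 and 0.08, beside 0.38), and for Cdkn1b Trim46, Sgsm2 and Tead2 (each 0.11, beside 0.35).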

How the data were processed

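Libraries were prepared with the Lexogen SENSE mRNA kit from total RNA, per the labels' protocols. The authors deposited FPKM values per gene and library; the submitters' processing notes name GSNAP and Cufflinks, whose versions and settings, like the genome build, are not stated there. How reads of near-identical copies were divided was not examined. From 26407 rows, 4 genes with the entry 999999999, read as a failed estimate, and 2 repeated all-zero rows were dropped.

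Each sample record names its column. On log2(FPKM + 1), limma 3.58.1 (R 4.3.3) was fitted with a mean-variance trend and the set as its single term to all 9 libraries, for the 11376 genes whose mean reached 1 FPKM. Two-sided p-values were adjusted by Benjamini-Hochberg over all tested genes of a comparison, with calls at adjusted p under 0.05. Shares and ratios within a family were compared by exact permutation over libraries. A symbol with several rows was represented by its highest. The procedure was tested on simulated data.

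All 10 genes are named throughout. From each further list up to 4 called genes of largest difference could be named per comparison, and partner genes such as Cdk2 and Myc whatever their result. Of these, 1 list, 1 partner gene and 1 promoter motif are not reported here. Genes and lists were chosen with earlier results of these data known. The 19 alternatives were other pseudocounts, filters and scalings, no variance trend, a replicate block, a fit of the sets compared, and leaving out each library.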

Additional observations from a re-analysis of the deposited data

How the results depend on the processing

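Of 507 alternative values of single-gene differences, 444 kept their direction and side of the threshold, 39 lost a call, 12 gained one and 12 changed sign, the last all without a call. All 48 alternative values of the Cip/Kip to D-type cyclin ratio and the Ccnd1 share kept their direction, the smallest being the ratio between the treated sets without PDGF-NS library 2 (−0.045 against −0.24), though with 3 libraries a set their exact p could not pass 0.05. A mean of at least 5 FPKM gave no value for Ccne1 and Ccne2. Calls among the 9 genes in IGF-NS against control went from 3 to 1 under median ratio scaling and to 1 in the fit of 6 libraries, and ranged from 1 to 3 when a library was left out (1 without control library 2 or 3 or IGF-NS library 1). In PDGF-NS against control they went from 3 to 1 with no filter on low values and ranged from 1 to 4 (1 without control library 1 or 2 or PDGF-NS library 3). Between the treated sets they went from 1 to 2 under median ratio scaling, to 2 under common sum scaling and to 2 under quantile normalization, and ranged from 1 to 2 (2 without IGF-NS library 2 or 3). Over all genes, leaving out a library gave 1757 (without IGF-NS library 1) to 2935 calls in IGF-NS against control and 1014 (without PDGF-NS library 3) to 2143 between the treated sets. The cause of these shifts was not tested.

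Sign changes concerned differences near 0. For Cdkn1b in PDGF-NS against control the value was −0.10 under median ratio scaling, −0.11 under common sum scaling and −0.10 under quantile normalization, and −0.058 to 0.18 when a library was left out. Ccnd2 gave −0.28 to 0.055 there. Between the treated sets, common sum scaling gave −0.064 for Ccnd2 and −0.028 for Ccne2, and leaving out a library gave −0.091 to 0.24 and −0.048 to 0.14.

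With the replicate block, 2457, 3221 and 1530 genes were called in the 3 comparisons, and 2, 2 and 1 of the 9 genes; Cdkn1b in IGF-NS and Ccnd3 in PDGF-NS were the calls lost. Libraries of the same number deviated with correlations from −0.28 to 0.25, and control library 1, for example, correlated best with IGF-NS library 3 (0.34), so the numbers were not taken to pair the libraries. Read depth is unknown, so values such as those of Cdkn1c and Ccne2 carry no counting interval.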
